A study of Mus musculus with 4 samples.

Results

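The 31 semaphorin, plexin and neuropilin genes of the mouse were examined for SOX3 binding in neural progenitor (NP) cells. They were taken by name from the GENCODE vM1 annotation, which lists 22367 protein-coding genes on the nuclear chromosomes, and every SOX3 peak that overlapped the body of a gene or the 50 kb to either side of it was collected. The family comprised 20 semaphorins, which are the ligands, 9 plexins, which are their receptors, and 2 neuropilins, which are co-receptors. NP cells were made by culturing R1 cells, an embryonic stem cell line of the mouse, in the serum-free medium N2B27 for 4 days, and no gene deletion or other treatment was named. Chromatin bound by the endogenous SOX3 protein was immunoprecipitated in 3 biological replicates with a goat antibody raised against human SOX3 and sequenced (ChIP-seq), and 1 input sample without antibody served as the background for the authors' peak caller. All samples came from a single stem cell line, and the question was where SOX3 binds, with no second condition to compare. The lists hold positions and scores of peaks and no gene expression, so the identity of the cells and the transcription of these genes could not be checked.

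Semaphorins are guidance proteins that steer growing axons and migrating cells. Class 3 semaphorins are secreted and mostly act through a neuropilin, which binds the ligand, and a plexin, which carries the signal into the cell and alters the cytoskeleton. Semaphorins of classes 4, 5 and 6 are held in the membrane and class 7 is attached to it by a lipid anchor, and these bind plexins directly. In the developing brain the family takes part in axon guidance, neuronal migration and the growth of blood vessels. SOX3 is a transcription factor of NP cells that recognises short sequences with the core ACAA.

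The sequences shown here are those of the 4 highest-ranked regions with a peak in each of the 3 replicates and of the 3 regions at the start of a member gene. Each is the stretch covered by a peak of every replicate, reduced to at most 300 bases around its middle and without bases of annotated exons. It is read 5′ to 3′ on the plus strand of NCBIM37, the assembly also called mm9, to which all positions refer. Capitals mark 2 kinds of SOX word on either strand. The A-first word is AACAAA or AACAAT. The G-first word is GACAAA or GACAAT. A word on the minus strand appears as its reverse complement, such as ATTGTT for AACAAT.
Plxna2 intron 3, chr1:196489313-196489612: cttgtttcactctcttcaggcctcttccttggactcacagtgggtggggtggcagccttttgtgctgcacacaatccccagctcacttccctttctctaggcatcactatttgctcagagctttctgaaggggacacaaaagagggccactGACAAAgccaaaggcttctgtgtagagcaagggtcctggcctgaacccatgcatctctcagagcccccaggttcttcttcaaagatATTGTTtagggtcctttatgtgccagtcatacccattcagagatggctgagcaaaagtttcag
Nrp1 downstream, chr8:131062389-131062688: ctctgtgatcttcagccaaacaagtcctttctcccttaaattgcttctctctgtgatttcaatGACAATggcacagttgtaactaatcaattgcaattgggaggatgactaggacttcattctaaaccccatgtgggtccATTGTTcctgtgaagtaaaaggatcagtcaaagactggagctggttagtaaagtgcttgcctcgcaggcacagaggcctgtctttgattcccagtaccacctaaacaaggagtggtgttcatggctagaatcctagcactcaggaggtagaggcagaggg
Sema3b upstream, chr9:107529271-107529570: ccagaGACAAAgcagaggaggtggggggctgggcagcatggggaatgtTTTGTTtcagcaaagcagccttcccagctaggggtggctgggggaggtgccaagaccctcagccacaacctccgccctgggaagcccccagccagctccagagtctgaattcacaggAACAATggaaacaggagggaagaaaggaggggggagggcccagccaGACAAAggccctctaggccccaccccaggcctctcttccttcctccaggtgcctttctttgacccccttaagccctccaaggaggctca
Sema6d intron 2, chr2:123971326-123971625: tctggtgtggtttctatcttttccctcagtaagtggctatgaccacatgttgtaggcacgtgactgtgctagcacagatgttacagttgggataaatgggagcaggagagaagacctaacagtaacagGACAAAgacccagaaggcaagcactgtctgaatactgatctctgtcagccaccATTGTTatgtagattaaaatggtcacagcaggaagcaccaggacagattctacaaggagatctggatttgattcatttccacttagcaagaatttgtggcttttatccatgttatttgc
Sema4c intron 1, inner, chr1:36613350-36613647: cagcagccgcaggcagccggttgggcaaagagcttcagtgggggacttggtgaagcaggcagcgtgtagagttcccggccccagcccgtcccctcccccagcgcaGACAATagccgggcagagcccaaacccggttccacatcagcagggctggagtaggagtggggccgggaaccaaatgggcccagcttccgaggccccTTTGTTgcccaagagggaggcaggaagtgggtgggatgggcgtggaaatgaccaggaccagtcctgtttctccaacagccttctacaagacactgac
Sema4c intron 1, outer, chr1:36613931-36614173: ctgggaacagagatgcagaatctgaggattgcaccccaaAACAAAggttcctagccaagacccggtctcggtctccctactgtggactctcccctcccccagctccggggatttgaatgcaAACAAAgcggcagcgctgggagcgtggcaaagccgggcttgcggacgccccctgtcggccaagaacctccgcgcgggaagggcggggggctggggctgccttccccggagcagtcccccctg
Sema4d intron 2, chr13:51849387-51849595: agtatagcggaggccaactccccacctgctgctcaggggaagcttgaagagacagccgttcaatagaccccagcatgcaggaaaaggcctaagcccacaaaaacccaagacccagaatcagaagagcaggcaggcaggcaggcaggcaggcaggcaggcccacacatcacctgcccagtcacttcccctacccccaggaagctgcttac

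The first 5 of these stretches hold at least 1 word of each kind. The outer Sema4c stretch holds AACAAA in 2 places and no G-first word, and the Sema4d stretch holds neither. A match describes letters of the reference and is not evidence of contact with the protein.

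Peaks that overlapped by at least 1 bp were joined into regions, and a region was classed by the number of replicates with a peak in it. The lists differed in length, with 18816, 8096 and 40543 peaks in replicates 1, 2 and 3, and their read depth is unknown. The windows of the 31 genes covered 6.97 Mb and held 68, 19 and 99 of these peaks. The peaks formed 139 regions, none of which lay in the windows of different members. Of these, 16 had a peak in each of the 3 replicates, 13 in 2 replicates and 110 in 1 replicate. Among the single-replicate regions 70 came from replicate 3 and 40 from replicate 1, and none from replicate 2. The share of regions found in 3 replicates was 11.5% in the family and 10.5% among all 51271 regions of the genome. Replicates 2 and 3 also shared exact positions, since 9 of the 19 overlapping pairs of their peaks in these windows began at the same base (34.5% of 7815 pairs over the genome). None of the 28 overlapping pairs of replicates 1 and 3 in these windows did (1.63% of 8269 over the genome), and the reason for this was not tested. If replicates 2 and 3 were not independent, a region found in 3 replicates rests on fewer than 3 independent samples.

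**Figure D1:**
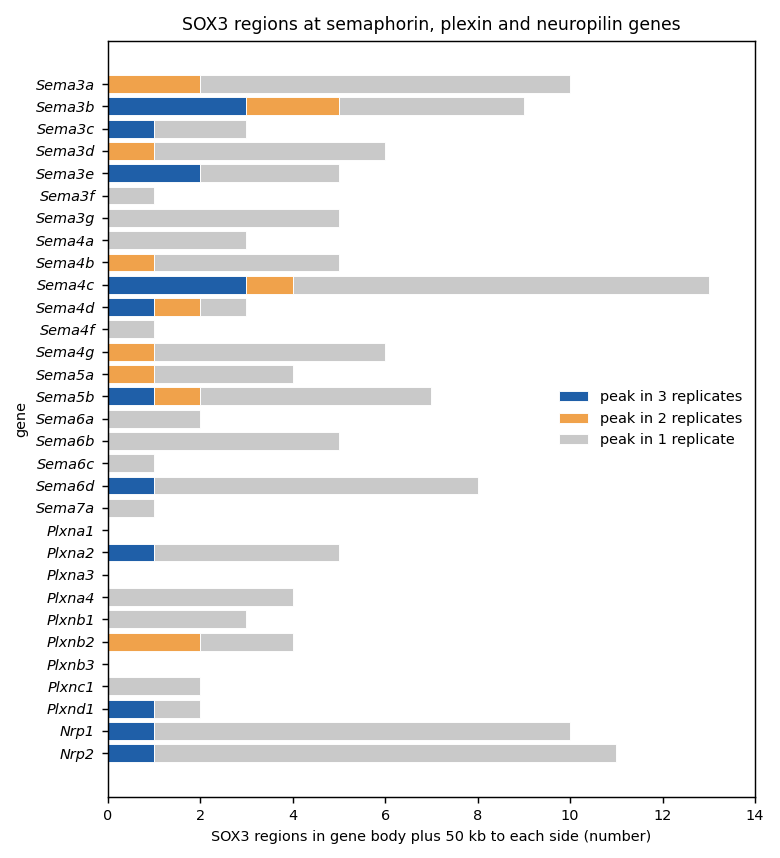
Number of SOX3 regions in the gene body plus 50 kb to each side (horizontal axis) for each of the 31 genes (vertical axis), with bars divided by the number of replicates that had a peak. Sema4c has the longest bar with 13 regions, Sema4c and Sema3b each have 3 regions found in 3 replicates, and Plxna1, Plxna3 and Plxnb3 have no bar.

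Within 50 kb, SOX3 bound around the semaphorin family about as often as around other genes. A region found in 3 replicates lay in the window of 11 of the 31 genes, or 35.5% (95% Wilson confidence interval 21.1 to 53.1%), against 28.8% of all protein-coding genes. A region found in at least 2 replicates lay at 17 members, or 54.8% (37.8 to 70.8%), against 46.4% of all genes, and a region of any kind at 28 members, or 90.3% (75.1 to 96.7%), against 90.6%. In each case the share of all genes lay inside the interval of the family, which covers counting error only. When only peaks with p-values no larger than 1e-10 were kept, 8 members had a region common to the replicates, or 25.8% (13.7 to 43.2%), against 15.2% of all genes. That share too lay within the interval. Replicate 2 had the shortest list, and without it 26 regions were common to replicates 1 and 3, at 16 members, or 51.6% (34.8 to 68.0%), against 39.4% of all genes.

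Gene length differed widely in the family, from 9.71 kb for Sema4c to 578 kb for Sema6d, and a longer window has more room for peaks. The windows of the members had a median length of 140.2 kb, against 115 kb for all genes. When each member was given the value of its own decile of all genes by window length, a total of 11.1 members would have a region found in 3 replicates, and 11 did. The corresponding total of such regions was 17.5, and 16 were counted. The total of regions of any kind was 157, and 139 were counted. The longest decile is broad, with windows of 205 to 4535 kb, so there genes of like length include some far longer than any member. In gene bodies alone, 6 members had a region found in 3 replicates, or 19.4% (9.19 to 36.3%), against 8.83% of all genes, which lay below the interval. The median gene length was 40.2 kb for members and 15.4 kb for all genes, and genes of like length would give a total of 5.55. With 10 kb to each side, 7 members had one, or 22.6% (11.4 to 39.8%), against 14.1% of all genes and a total of 6.95 from genes of like length. Per Mb of window, the family had 2.30 regions found in 3 replicates and the windows of all genes had 2.49. The order turned in 5 of the other settings tried, most at p-values no larger than 1e-10, with 1.72 in the family and 1.23 in all windows. Window length and the number of such regions were weakly related across the 31 genes (Spearman's coefficient 0.13) as they were across all genes (0.12), and genes are not independent replicates.

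**Figure D2:**
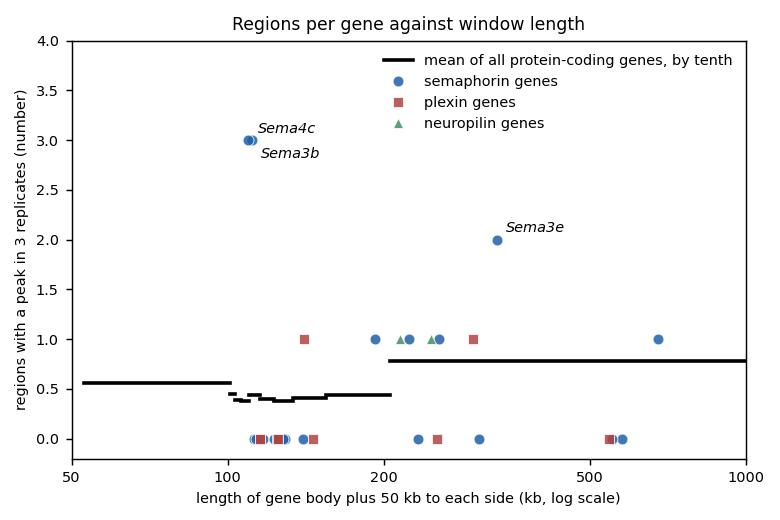
Number of regions found in 3 replicates (vertical axis) against the length of the gene body plus 50 kb to each side (horizontal axis, kb, log scale) for the 20 semaphorin, 9 plexin and 2 neuropilin genes, with black lines for the mean of all protein-coding genes in each length decile. Sema4c and Sema3b lie at 3 regions with windows of 109.7 and 112 kb, Sema3e lies at 2, and the other genes lie at 0 or 1, where points overlap. The black line of the longest decile runs beyond the right edge of the plot.

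By role, 7 of the 20 ligand genes, 2 of the 9 plexin genes and both neuropilin genes had a region found in 3 replicates, against 28.8% of all genes and 45.4% of those in the longest decile, to which both neuropilins belong. Class 3 held 6 of the 16 regions, at 3 of its 7 genes, and class 4 held 4, at 2 of its 6 genes. Classes 5 and 6 held 1 each, and the only class 7 gene, Sema7a, held none. Plexin A and plexin D held 1 each, and the plexin B and plexin C genes held none. These groups are small, and no difference between them was tested.

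**Figure D3:**
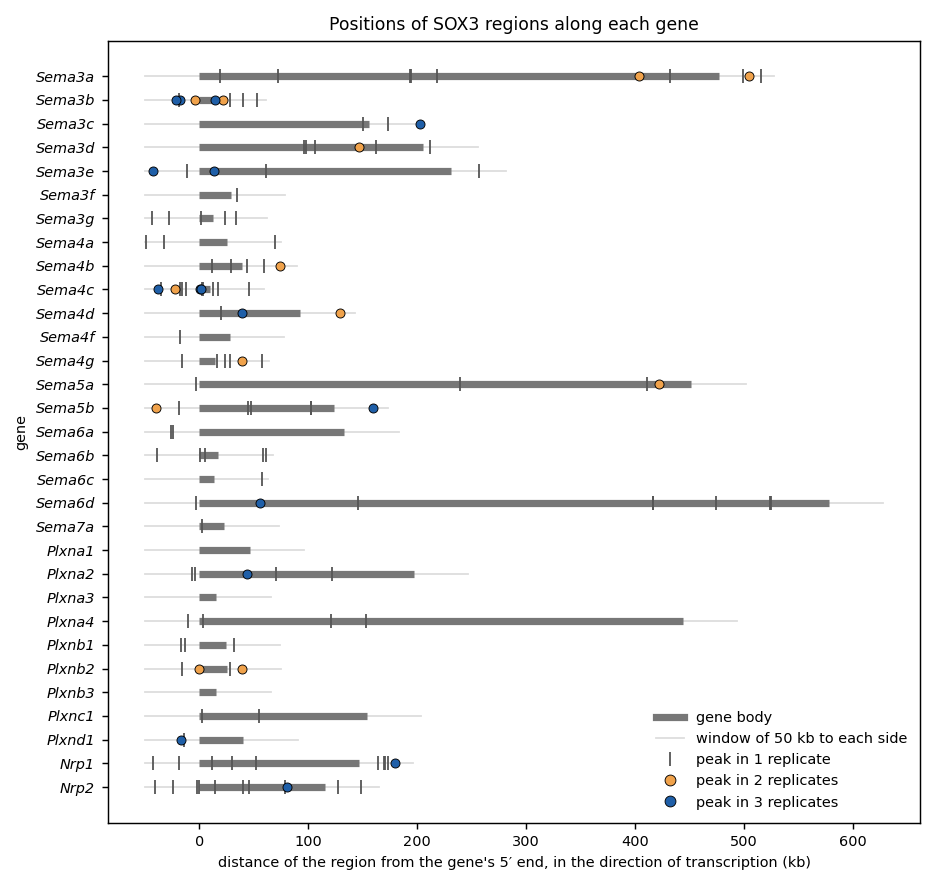
Position of each SOX3 region along the 31 genes (vertical axis), as the distance from the 5′ end of the gene in the direction of transcription (horizontal axis, kb), with grey bars for the gene bodies and thin lines for the 50 kb to each side. Dark points mark regions found in 3 replicates, light points regions found in 2 and ticks regions found in 1. Of the regions found in 3 replicates of Sema4c, 2 lie within the gene and 1 lies 37.8 kb outside it, and that of Nrp1 lies 32.8 kb beyond its 3′ end.

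Each score in the lists is the negative log10 of the p-value given by MACS, times 10. Scores depend on the depth of each library, so the rank of a peak was taken within its own list, as the percentile of peaks with a score no higher. At the 16 regions found in 3 replicates, the median percentile was 87.9 in replicate 1, 74.3 in replicate 2 and 96.0 in replicate 3, against 82.6, 65.1 and 92.8 for all 5358 such regions. Replicate 2, the shortest list, gave the lowest percentile at each of the 16 and the lowest median over all such regions. Percentiles from lists of unlike length are not directly comparable, so the lowest percentile of the 16 is their rank in replicate 2. The lowest of the 3 percentiles was in the upper quartile of all such regions, at 81.9 or above, for 7 of the 16. These 7 lay at Plxna2, Nrp1, Sema3b, Sema6d, Sema3e and Sema4c, with 2 of them at Sema3b.

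**Figure D4:**
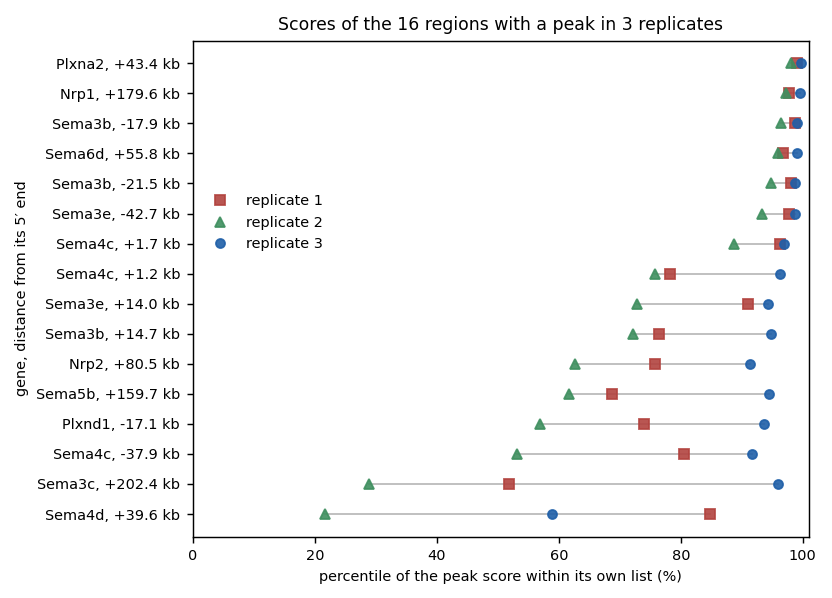
Percentile of the highest peak score within its own list (horizontal axis, %) in replicates 1, 2 and 3 for each of the 16 regions found in 3 replicates, labelled by gene and distance from its 5′ end in kb and ordered by the lowest percentile. All 3 values lie above 88 in the upper 7 rows, and they spread widely in the lower rows, from 21.7 to 84.8 for Sema4d.

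Among the secreted class 3 ligands, Sema3b had 3 regions found in 3 replicates, more than any other gene of its class. At least 3 such regions were present at 3.2% of all genes and at 2.68% of genes of like length. The strongest lay 17.9 kb upstream of Sema3b, at chr9:107529059-107529679, with scores of 803, 455 and 764 in replicates 1, 2 and 3. The next lay 21.5 kb upstream, at chr9:107532841-107533325, with scores of 687, 375 and 637. Both lay inside Gnai2, a G protein subunit gene, whose start was nearer to them (8235 and 4556 bp), so position alone does not assign them to Sema3b. The third lay downstream of the gene inside BY080835, at chr9:107496622-107496956, with scores of 143.9, 126 and 234. The strongest pair also bordered Sema3f, which encodes the main neuropilin-2 ligand of the class, at 54.2 and 50.5 kb from that gene and thus just outside its window.

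Sema3e, whose product binds plexin D1 without needing a neuropilin, had 2 regions found in 3 replicates. At least 2 were present at 3 members (9.68%), at 8.51% of all genes and at 18.1% of genes of like length. The first lay 42.7 kb upstream, at chr5:13982312-13982886, with scores of 617, 324 and 648. The second lay in intron 1, 13.98 kb from the nearest start of Sema3e, at chr5:14039092-14039562, with scores of 285, 129 and 222. Sema3e had the nearest coding start to both.

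Sema3c, which acts through both neuropilins, had 1 such region, downstream and 46.3 kb from the gene, at chr5:17282354-17282699. Its scores were 79.7, 61.5 and 275, at percentiles of 51.9, 28.8 and 95.9, so it was strong in replicate 3 and not in the others. It overlapped the annotated microRNA gene AC154124.1, and the nearest coding start was that of Cd36 at 59172 bp. Sema3a, the classical axon repellent of the class, had 10 regions in a window of 577 kb and none in 3 replicates. A peak of replicates 1 and 3 lay in its intron 6 with scores of 63.0 and 88.7, and another lay downstream with scores of 61.4 and 173. Sema3d had a region of replicates 1 and 3 in intron 8, with scores of 69.5 and 66.6. Sema3f had 1 region and Sema3g had 5, all in a single replicate. Sema3b had 2 further regions in replicates 1 and 3, of which one lay 45 bp from the start of the neighbouring gene Ifrd2 and the other 3.63 kb upstream of Sema3b.

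Of the membrane-bound class 4 ligands, Sema4c had the most regions of the family, also per length of window. Its product is a ligand of plexin B2. The gene is the shortest member and had 13 regions, a number reached by 2.64% of genes of like length. Of these regions, 9 were found in a single replicate, 7 of them in replicate 3 alone. Several lay nearer to a start of Cnnm3, Ankrd39 or Fam178b than to one of Sema4c. Of its 3 regions found in 3 replicates, 2 lay at the start of the gene and 1 far upstream. At the start, the inner region lay in intron 1, 872 bp downstream of the nearest start, at chr1:36613277-36613796, with scores of 489.9, 234 and 342. The outer region lay in the same intron 344 bp from a start, at chr1:36613836-36614334, with scores of 153, 139 and 294. The inner and outer regions nearly touch and were counted apart because their peaks do not overlap. The upstream site lay 37.9 kb away inside Fam178b, whose start was nearer (2958 bp), at chr1:36652974-36653375, with scores of 166, 86.1 and 169.5. A further region of replicates 1 and 3 lay in Fam178b with scores of 168 and 77.0, and 2 single-replicate regions lay within 2000 bp of a Sema4c start.

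Sema4d, which encodes a ligand of plexin B1, was the other gene with a region found in 3 replicates at its own start. It lay 643 bp from an alternative start and in intron 2 of an annotated transcript, at chr13:51849276-51849629, with scores of 199, 57.8 and 68.8. In replicate 2 it was near the threshold of 50, at a percentile of 21.7. A much stronger region lay just beyond the window, 52.0 kb from Sema4d, at chr13:51941092-51941665, with scores of 939, 742 and 986. Sema4b and Sema4g each had 1 region of 2 replicates, at the promoter of another gene, 127 bp from the start of Ngrn and 1887 bp from that of Pdzd7, and their other 4 and 5 regions were found in a single replicate. Sema4a and Sema4f had 3 and 1 regions, all of replicate 3 alone.

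A promoter region, within 2000 bp of a start of the same gene, was found in 3 replicates at 2 members, or 6.45% (1.79 to 20.7%), against 4.82% of all genes. Counting any replicate, 7 members had a region at their promoter, or 22.6% (11.4 to 39.8%), against 29.8% of all genes. These were Sema4c, Sema4d and Plxnb2, and also Nrp2, Sema3g, Sema4b and Sema6b, whose promoter regions were each found in a single replicate.

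Classes 5 and 6 are transmembrane ligands. Sema5b had a region found in 3 replicates 38.4 kb from its nearest start, inside the neighbouring gene Dirc2, at chr16:35700781-35701195, with scores of 115, 100.8 and 226. Of its 50-base sequences, 84.0% have a further copy elsewhere in the genome, and it was the only one of the 16 to be mostly multi-copy, against 15.6% of all such regions. Sema6d had its region in intron 2, 2.73 kb downstream of a start of the gene, at chr2:123971213-123971734, with scores of 538, 428 and 750.0. It was among the strongest of the family, with a lowest percentile of 95.9, and Sema6d had the nearest coding start. The remaining Sema6d regions comprised 6 of replicate 1 alone, all in introns, and 1 of replicate 3. Sema5a had 1 region of replicates 1 and 3, in intron 14, with scores of 208 and 56.5. Sema6a, Sema6b, Sema6c and Sema7a had single-replicate regions, and the 5 at Sema6b were all from replicate 1.

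Among the receptors, Plxna2, a plexin that pairs with neuropilins and also binds class 6 semaphorins, had the highest-ranked region of the family. It lay in intron 3, 18.4 kb from the nearest start, at chr1:196489097-196489775, with scores of 949, 591 and 1172. Its percentiles were 99.02, 98.1 and 99.7 in these lists. Its sequence, shown first above, holds GACAAA at chr1:196489464-196489469 and ATTGTT at chr1:196489550-196489555. Plxna4 had 4 regions, each in a single replicate, in a window of 544 kb, and Plxna1 and Plxna3 had none. Genes without any region made up 9.44% of all genes, and 3 members were of this kind.

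Plxnd1, the receptor of Sema3e, had a region found in 3 replicates 17.1 kb upstream, at chr6:115961985-115962346, with scores of 133, 92.0 and 204.5. Plxnb2, the receptor of Sema4c, had no such region but had 1 of replicates 1 and 3 across its start, at chr15:89010957-89011375, with scores of 196 and 77.2. A second Plxnb2 region of these replicates lay at the promoter of Mapk12, with scores of 84.9 and 81.7. Plxnb1 had 3 regions of replicate 3 alone, Plxnb3 had none, and Plxnc1, the receptor of Sema7a, had 2 single-replicate regions.

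The neuropilin genes had 10 regions at Nrp1 and 11 at Nrp2, of which 1 each was found in 3 replicates. At least as many regions were present at 21.1% and 17.9% of genes of like length. Both neuropilin genes are in the longest decile, where windows reach 4535 kb, so the genes compared include far longer ones. Nrp1 encodes a receptor of class 3 semaphorins and of vascular endothelial growth factor. Its region lay 32.8 kb beyond the 3′ end, 179.6 kb from the start, at chr8:131062142-131062771, with scores of 625, 508 and 1097. It was the second-highest in rank of the family, with a lowest percentile of 97.3, and the nearest coding start was that of Itgb1 at 147016 bp. The region of Nrp2, which binds Sema3f, lay in intron 13, 80.04 kb from the nearest start, at chr1:62830158-62830479, with scores of 141, 104 and 164. The other 9 regions of Nrp1, and 9 of the other 10 of Nrp2, were found in replicate 3 alone. The last was a replicate 1 peak 27 bp from the Nrp2 start, with a score of 65.3.

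By location relative to their own gene, 3 of the 16 regions found in 3 replicates were at the promoter, 4 in an intron, 5 upstream and 4 downstream. A member had the nearest coding start for 10 of the 16, and 5 lay inside another gene. Relative to any gene, 9 were intronic, or 56.2% (33.2 to 76.9%), against 28.4% of all 5358. Another 4 were intergenic, or 25% (10.2 to 49.5%), against 51.2%, and 3 were at a promoter, or 18.8% (6.59 to 43.0%), against 19.3%. The windows of the family were taken around genes, whereas the 5358 regions came from the whole genome, so these shares are not on an equal footing. The median width of the 16 was 478 bp, against 401 bp.

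The regions of 1 replicate were of lower rank, with scores of 52.2 to 159 in replicate 1 and 50.2 to 121 in replicate 3. Their median percentile was 39.0 in replicate 1 and 49.3 in replicate 3. Of the 110, 14 were mostly multi-copy, a smaller share than the 23.1% of all peaks of replicate 1 and 29.2% of those of replicate 3. Those shares are over the genome and include peaks shared between replicates, so the sets are not alike. The single-replicate regions differed in base composition. The median GC content of 200 bp at the middle was 57.2% for the 40 regions of replicate 1 alone. It was 48.0% for the 70 of replicate 3 alone. The same order was present over the genome, at 53.0% and 45.5%. The 16 regions found in 3 replicates had a median of 52.5%, with a range of 38 to 65%, and all such regions had 49.5%. What sets these differences was not tested.

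Exact matches to SOX words on either strand were counted in the 200 bp around the middle of each common stretch, and in windows of equal size 2000 bp to each side. The A-first word was present in 9 of the 16 regions, or 56.2% (33.2 to 76.9%), and in 12 of the 32 flanks, or 37.5% (22.9 to 54.7%). Over the genome it was present in 49.2% of the regions and 31.5% of the flanks. The G-first word was present in 8 of the 16, or 50% (28.0 to 72.0%), and in 1 of the 32 flanks, or 3.12% (0.554 to 15.7%), and over the genome in 34.2% and 18.8%. For the G-first word the intervals of the regions and of their flanks were apart, and for the A-first word they overlapped. The flanks rather than the regions stood apart from the genome, since the interval of the family flanks excluded the 18.8% of all flanks, whereas that of the family regions included the 34.2% of all regions. A broader SOX word, ACAA followed by A or T and then by A or G, overlaps the other words where a suitable base follows them, and it was present in 13 of the 16, or 81.2% (57.0 to 93.4%), and in 37.5% of the flanks (22.9 to 54.7%). It was present in 73.7% of all regions and 47.4% of their flanks. For the broader word too the intervals of the family regions and of their flanks were apart. Each region has a flank to either side, and the intervals leave this pairing out.

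The POU octamer (ATGCAAAT or ATGCTAAT) was in none of the 16 regions, which allows a share of up to 19.4% (upper Wilson bound), in 2 of their 32 flanks (6.25%), in 8.87% of all regions and in 2.24% of all flanks. The joint SOX/POU word, which contains the first bases of the octamer next to a SOX word, was likewise in none of the 16 and none of their flanks, in 6.53% of all regions and in 0.215% of all flanks. With 16 regions a difference of this size was not detectable. The A-first and G-first words were together in 6 of the 16, or 37.5% (18.5 to 61.4%), against 16.7% (15.7 to 17.7%) of all regions, and at least 1 of them was in 11 of the 16 (68.8%), against 66.7%. Among the 7 regions of the upper quartile by lowest percentile all held at least 1 of these words, against 77.5% of all regions of that quartile. Among the other 9 the number was 4, against 63.1%. The count of both words together and the split by quartile were chosen after their values were seen and were given no test.

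**Figure D5:**
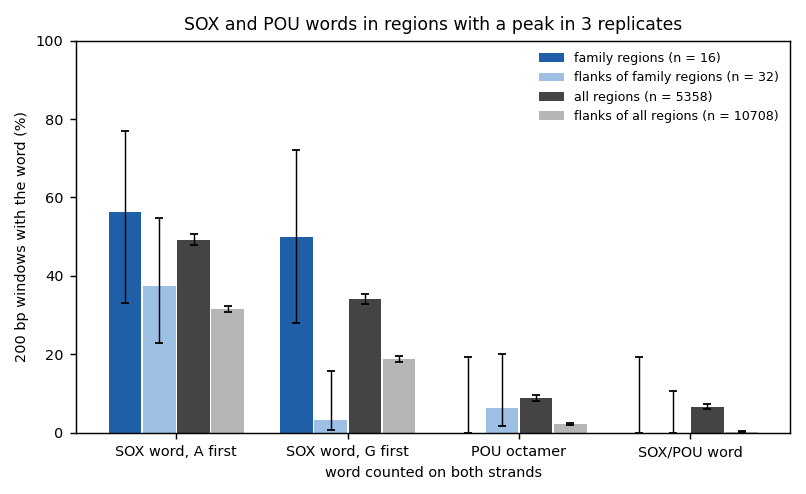
Share of 200 bp windows (vertical axis, %) that hold each word on either strand (horizontal axis), for the 16 family regions, their 32 flanking windows, all 5358 regions found in 3 replicates and the 10708 flanks of these, with 95% Wilson intervals as bars. The G-first word is present in 50% of the family regions and 3.12% of their flanks, and the POU octamer and the SOX/POU word have no bar for the family regions.

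The 20 members without a region found in 3 replicates had their nearest one between 50.5 kb, for Sema3f, and 1117 kb, for Sema5a, from the gene. Besides Sema3f, Sema4g at 54.8 kb and Sema6b at 59.6 kb lay closest to the limit. The Sema4g neighbour had scores of 145, 81.3 and 137. The Sema6b neighbour had scores of 72.2, 118 and 536, at percentiles of 45.9, 68.9 and 98.4 in replicates 1, 2 and 3. With windows of 100 kb to each side, 14 members had such a region, against 42.2% of all genes.

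A list of 30 partner genes, which encode co-receptors, collapsin response mediator proteins, kinases, MICAL enzymes and other proteins that act with plexins and neuropilins, was counted in the same way. Of these, 14 had a region found in 3 replicates, or 46.7% (30.2 to 63.9%), against 28.8% of all genes. Their windows were longer, with a median of 166 kb, and genes of like length would give a total of 10.7. The largest numbers were at Itgb1, the beta 1 integrin gene, with 3 regions, and at Nrcam, an adhesion molecule of axons, and Tiam1, a Rac activator, with 2 each. Such a region lay at the promoter of 3 of the 30 partners, Itgb1, Gipc1 and Ptk7, against 4.82% of all genes.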

How the data were processed

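The authors aligned the ChIP-seq reads to mm9 with Bowtie (1.0.0 in the submitters' processing notes) and called peaks in each replicate with MACS, at a bandwidth of 300 and a p-value threshold of 1e-05 against the input. The version of MACS is not given in the sources used here, and the input was not analysed here. The deposited score of each peak is 10 times the negative log10 of the p-value, so 50 is the threshold. The paper describes no normalisation of scores between replicates. Read depth is unknown.

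Peaks overlapping by at least 1 bp were merged into regions. Gene windows were the GENCODE vM1 gene body plus 50 kb to each side on NCBIM37, and genes of like length were those in the same decile of window length. A region was mostly multi-copy when over 50% of its 50-base sequences occur in more than 1 place. Intervals are 95% Wilson intervals over regions or genes and cover counting error only. The members and lists were chosen with earlier results of these data known, so shares of all genes are given as descriptions, with no test. All members are accounted for. The rule for scores named promoter regions, the 10 regions with the highest lowest percentile and the highest region of each gene, which here covers nearly all regions found in 3 replicates, so all 16 are given. Scripts ran in Python 3.11.15 (pandas 2.3.3, numpy 2.4.6, pysam 0.24.0, scipy 1.17.1, numba 0.67.0, matplotlib 3.10.9). The counting was tested on simulated data. Mical3 has 2 entries in the annotation and was counted once.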

Additional observations from a re-analysis of the deposited data

How the results depend on the processing

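Of 52 values recomputed under other settings, 44 stayed within 1.5 times the reported count or density, or within the interval of a share. Leaving out each replicate in turn gave 11 to 16 members with a region common to the remaining replicates, 16 to 26 such regions, 2.30 to 3.73 per Mb, and 2 to 3 members with one at their promoter. The upper values all came from leaving out replicate 2, when the share of all genes was 39.4% and the density over the windows of all genes 3.69 per Mb. In gene bodies alone 6 members held 7 regions, at 1.80 per Mb against 2.43 for all genes, and with 10 kb to each side 7 members held 8, at 1.77 against 2.56. The family density lay above that of all genes for p-values up to 1e-10 (1.72 against 1.23), with equal lists (2.01 against 1.82), without multi-copy peaks (2.15 against 2.07) and at a reciprocal overlap of 50% (2.30 against 2.26), as it did without replicate 2. The member share in gene bodies, 19.4%, had an interval above the 8.83% of all genes, whereas genes of like length would give 5.55 members. With a p-value of 1e-10 or less, and with 8096 peaks in each list, 1 member kept a promoter region, which was Sema4c, where 2 had been counted. That is 3.23% of members, against 1.99% and 3.33% of all genes. The share with the A-first word was 37.5% in 100 bp and 75% in 400 bp. No paired analysis was possible because all replicates belong to 1 group. The lists give no depth, so a region absent from replicate 2 may be below its threshold.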
